A study of Homo sapiens with 12 samples.

Results

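A group of 10 genes went close to silence or switched on in 786-O cells whose JUN-family transcription factors had been knocked down: LEF1, AUTS2, IGFL3, CHST9, SRGN, ACKR3 and TMEM98 fell, and CENPV, PAPLN and ALDH2 rose. They are 10 of the 62702 genes in the count table, and all 10 were among the 12301 genes that passed the filter on low counts. The genes were chosen by their counts in the JUN-family knockdown line against the parental line, with no numeric limit, so that contrast is described below without a test. Comparisons of the JUN-family knockdown line with other knockdown lines are tested, but their p-values lean on the same choice. The question put to the data was which of them were switched in that line alone.

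The series holds 12 libraries of 786-O, a human line from a clear cell kidney carcinoma without functional VHL, in 4 groups of 3. The shJUNs line carried shRNAs against JUN, JUNB and JUND, the shHIF2A line against HIF2A (the protein of EPAS1), and the shYAPTAZ line against YAP and TAZ, while the parental line is labelled as the control. Every group, the parental one included, received doxycycline for 72 hours to induce the shRNAs, and the derived lines had been selected with puromycin, blasticidin or hygromycin according to how many genes were silenced. A line carrying a control shRNA was not analysed here, and the labels do not say how many clones make up each derived line. The labels call the replicates technical, so each p-value measures only the spread between these libraries. Because RNA came from whole cultures, fewer cells with a transcript and less of it in each cell cannot be told apart.

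AP-1 is a dimer of JUN-family and FOS-family proteins that binds a short DNA element, TGAGTCA or its reverse complement TGACTCA, mostly at enhancers and also at promoters. It drives genes of growth, invasion and the response to growth factors, and it often shares its sites with TEAD factors, through which YAP and TAZ act on DNA. HIF2A, which builds up when VHL is lost, binds elements with the core ACGTG and is the main driver of hypoxia-type transcription in clear cell carcinoma.

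Depth lay between 2272459 and 4469956 counts per library, so that 3 counts in a library equal 0.666 to 1.36 CPM (counts scaled to the library size, after TMM). Of the shRNA targets, JUND was at 39.5, 34.2 and 42.0 CPM in shJUNs, against 310, 390 and 366 CPM in parental. JUND was also lower than in parental in shYAPTAZ (2.09-fold, adjusted p = 2.71e-05) and in shHIF2A (1.61-fold, adjusted p = 0.00312). JUN was 1.79-fold lower in shJUNs (adjusted p = 0.00215), but it was also 1.91-fold lower in shHIF2A (adjusted p = 0.00103). JUNB was 1.70-fold lower in shJUNs with overlapping libraries (adjusted p = 0.034), and this call was lost without any one of 5 libraries (adjusted p up to 0.2, reached without parental replicate 3). The JUNB call was also lost in limma-voom (adjusted p = 0.0782) and in a fit of these 2 groups' 6 libraries alone (adjusted p = 0.0506). Adjusted p-values are Benjamini-Hochberg values over the 12301 genes from edgeR's quasi-likelihood test, and genes were called at under 0.05. The summed level of 10 renal clear cell markers lay between 10334 and 17758 CPM per library, with LRP2 at 0. VIM made up most of this sum, at group means between 9454 and 14956 CPM. PAX8 was at group means of 88.9 to 101 CPM, whereas CA9 was at 1.29 to 3.67 CPM and CUBN at 0.0937 to 1.09 CPM. The blood list did not exceed 3.77 CPM and the endothelial list did not exceed 0.964 CPM. The 5 fibroblast markers summed to 26.4 to 31.8 CPM in shJUNs and 29.5 to 34.2 CPM in parental. The sums were 53.2 to 69.3 CPM in shHIF2A and 36.6 to 41.3 CPM in shYAPTAZ. DCN and PDGFRA had only 7 and 5 counts over the 12 libraries. The part of the fibroblast markers in the results was not tested.

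Promoter sequence was at hand for 6 of the 10 genes, 7 promoters in all, each running from 250 bases before to 50 bases after a transcript start (RefSeq, GRCh38.p14). Of these, 3 are shown, each read 5′ to 3′ on the gene's strand, because the first pair holds every match found and LEF1, which had no read in shJUNs and was not called in the other knockdowns against parental, holds none. Capitals mark a match to the AP-1 element TGANTCA, or to GGAATG, the core bound by TEAD factors (CATTCC when it lies on the opposite strand). IGFL3 is shown first, from chr19:46124639-46124938 on the minus strand, then the second start of PAPLN, from chr14:73239523-73239822 on the plus strand, and LEF1, from chr4:108166252-108166551 on the minus strand.
IGFL3: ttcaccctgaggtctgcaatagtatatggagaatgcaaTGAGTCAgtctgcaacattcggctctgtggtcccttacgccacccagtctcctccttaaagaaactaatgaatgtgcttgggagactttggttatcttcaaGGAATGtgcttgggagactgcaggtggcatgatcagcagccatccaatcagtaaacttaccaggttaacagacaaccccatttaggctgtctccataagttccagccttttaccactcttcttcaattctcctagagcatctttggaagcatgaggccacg
PAPLN: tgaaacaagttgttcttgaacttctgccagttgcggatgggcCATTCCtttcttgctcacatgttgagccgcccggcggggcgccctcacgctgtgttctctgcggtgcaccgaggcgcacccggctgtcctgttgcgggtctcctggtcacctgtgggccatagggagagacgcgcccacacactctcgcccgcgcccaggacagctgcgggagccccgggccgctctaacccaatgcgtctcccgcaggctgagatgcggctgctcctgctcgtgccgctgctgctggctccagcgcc
LEF1: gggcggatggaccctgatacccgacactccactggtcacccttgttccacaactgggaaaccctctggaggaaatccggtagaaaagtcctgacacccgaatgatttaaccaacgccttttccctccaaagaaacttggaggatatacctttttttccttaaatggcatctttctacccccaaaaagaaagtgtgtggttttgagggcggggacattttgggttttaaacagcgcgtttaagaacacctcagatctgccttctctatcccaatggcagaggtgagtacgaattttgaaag
The IGFL3 window was the only one of the 7 with an AP-1 match, TGAGTCA at position -212 from the start, and it also held GGAATG at position -111. The second PAPLN window held CATTCC at position -208. The windows of LEF1, AUTS2, CHST9, CENPV and the first PAPLN start had none of the motifs searched on either strand, which also included the CRE-type element TGACGTCA and the HIF core ACGTG. Among 35116 human promoters of this length, 7.71% held TGANTCA, 4.95% held TGAGTCA or TGACTCA, 1.85% held TGACGTCA, 14.0% held GGAATG and 21.4% held ACGTG. Base composition differed widely, from 46.7% G and C in IGFL3 and 47.0% in LEF1 to 82.3% in AUTS2. A match describes the letters only, and enhancers lie outside these windows. The LEF1 window lies inside the gene's deposited interval, chr4:108047545-108168956. A start at the outer end of that interval was not searched.

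LEF1 (ENSG00000138795, chr4:108047545-108168956, minus strand, hg38) encodes an HMG-box protein that carries beta-catenin to Wnt target genes. No read of it was counted in any shJUNs library. Its level was 20.9, 9.98 and 8.06 CPM in shHIF2A, 19.1, 15.6 and 16.4 CPM in shYAPTAZ, and 14.3, 12.7 and 18.4 CPM in parental. All 9 libraries outside shJUNs therefore expressed LEF1 at overlapping levels, and shJUNs stood below them all. With the 3-count floor set over the group, LEF1 was at least 64.3-fold lower in shJUNs than in parental. It was at least 56.6-fold lower in shJUNs than in shHIF2A (adjusted p = 2e-06) and at least 71.0-fold lower in shJUNs than in shYAPTAZ (adjusted p = 3.32e-07). Against parental, the log2 change of LEF1 was -0.21 ± 0.41 (SE) in shHIF2A (adjusted p = 0.772) and 0.17 ± 0.41 in shYAPTAZ (adjusted p = 0.811). The antisense gene LEF1-AS1 shares 279 exon bases with LEF1 and had 0 counts in shJUNs, 6 in shHIF2A, 9 in shYAPTAZ and 0 in parental.

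AUTS2 (ENSG00000158321, chr7:69598296-70793506, plus strand), known from neurodevelopmental disorders, encodes a partner of a variant Polycomb complex that in neurons activates genes. Like LEF1 it had no read in any shJUNs library. Its level was 2.32, 1.25 and 3.50 CPM in shHIF2A, 40.4, 56.7 and 59.8 CPM in shYAPTAZ, and 5.24, 3.94 and 7.63 CPM in parental. The 4 groups did not overlap, and the order ran from shJUNs through shHIF2A and parental to shYAPTAZ. AUTS2 was at least 23.9-fold lower in shJUNs than in parental and at least 230-fold lower in shJUNs than in shYAPTAZ (adjusted p = 3.31e-09). Against shHIF2A, which had only 22 counts, it was at least 9.81-fold lower in shJUNs (adjusted p = 0.000846). In shYAPTAZ it rose 9.29-fold over parental (adjusted p = 4.64e-06), opposite to its change in shJUNs. In shHIF2A it was 2.39-fold lower than in parental, which missed the threshold (adjusted p = 0.0654). That comparison passed without shHIF2A replicate 3 (adjusted p = 0.048) and in DESeq2 (adjusted p = 0.0465). The 5 neural markers summed to 13.0 to 14.9 CPM in shJUNs and 3.37 to 3.67 CPM in parental. The sums were 8.76 to 11.3 CPM in shHIF2A and 3.18 to 9.87 CPM in shYAPTAZ. RBFOX3 was at a mean of 7.86 CPM in shJUNs and 0.957 CPM in parental, and MAP2 at 5.70 and 1.87 CPM. GFAP, SOX10 and TUBB3 had only 5, 1 and 10 counts over the 12 libraries. The part of the neural markers in the AUTS2 values was not tested.

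**Figure D1:**
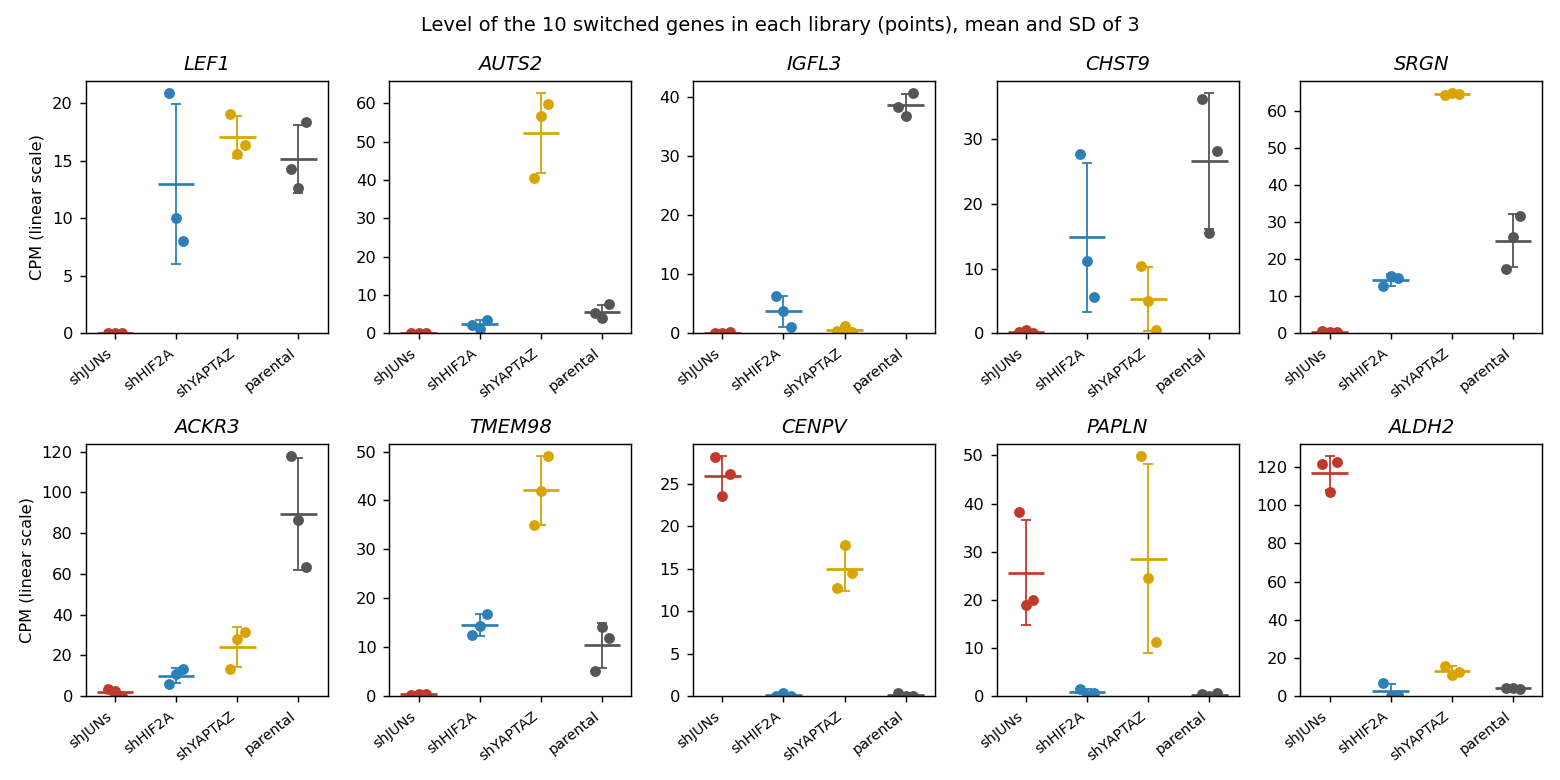
Level of each of the 10 genes in CPM (linear axis, one panel per gene, each with its own scale). Points are libraries, horizontal bars are means of 3 and vertical bars are SDs, with shJUNs at the left and parental at the right. AUTS2, SRGN and TMEM98 have their highest group in shYAPTAZ, IGFL3, ACKR3 and CHST9 in parental, and ALDH2 in shJUNs at 117 CPM.

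SRGN (ENSG00000122862, chr10:69088103-69104805, plus strand) encodes serglycin, the core protein of the proteoglycan that packs secretory granules of blood cells. It had 0.666, 0.267 and 0.447 CPM in shJUNs, 12.8, 15.6 and 15.1 CPM in shHIF2A, 64.5, 65.0 and 64.8 CPM in shYAPTAZ, and 17.5, 26.1 and 31.7 CPM in parental. No 2 of these groups overlapped, and the shYAPTAZ libraries lay within 1.01-fold of each other. SRGN was 49.8-fold lower in shJUNs than in parental, and 28.6-fold lower than in shHIF2A (adjusted p = 1.25e-07). It rose 2.57-fold in shYAPTAZ over parental (adjusted p = 0.00052). In shHIF2A it fell by 0.80 on the log2 scale (adjusted p = 0.0453), a call that 12 of 19 other settings lost; leaving out parental replicates 2 and 3, any shHIF2A library, shJUNs replicate 3 or shYAPTAZ replicates 2 and 3, one at a time, gave adjusted p-values between 0.0509 and 0.187. Without parental replicate 1 the fall passed 2-fold (log2 -1.01). Blood markers were at or near 0 in every library, with CD3E and LYZ at 0 throughout.

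TMEM98 (ENSG00000006042, chr17:32927910-32945106, plus strand) encodes a membrane protein of the endoplasmic reticulum that binds the transcription factor MYRF and blocks its self-cleavage. It had 0.222, 0.534 and 0.447 CPM in shJUNs, 12.5, 14.3 and 16.8 CPM in shHIF2A, 35.0, 42.0 and 49.2 CPM in shYAPTAZ, and 5.24, 14.1 and 11.9 CPM in parental. Only shHIF2A and parental overlapped. TMEM98 was 24.5-fold lower in shJUNs than in parental, 33.9-fold lower than in shHIF2A (adjusted p = 1.2e-06) and 98.2-fold lower than in shYAPTAZ (adjusted p = 3.77e-09). In shYAPTAZ it rose 4.01-fold over parental (adjusted p = 0.000185). In shHIF2A its log2 change was 0.47 ± 0.35 (SE; adjusted p = 0.387). MYRF itself was not called in any knockdown against parental, with a log2 change of -0.29 in shJUNs.

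IGFL3 (ENSG00000188624, chr19:46120067-46124688, minus strand) belongs to a small family of secreted, cysteine-rich proteins that resemble insulin-like growth factors. It had 0, 0 and 0.223 CPM in shJUNs, 6.38, 3.74 and 1.05 CPM in shHIF2A, 0.454, 1.27 and 0.241 CPM in shYAPTAZ, and 38.4, 36.8 and 40.7 CPM in parental. Every knockdown library lay below every parental library. With 1 count in shJUNs against 385 in parental, the ratio was 492, and its 95% Clopper-Pearson interval of 87.8 to 19480 covers counting error only. It is no test, since that contrast chose the gene. The same holds for the intervals of CHST9, CENPV and PAPLN in shJUNs against parental below. IGFL3 fell 10.1-fold in shHIF2A (adjusted p = 7.68e-05) and 57.2-fold in shYAPTAZ (adjusted p = 5.1e-07), both against parental. Those log2 changes, -3.34 and -5.84, became -3.96 without shHIF2A replicate 1 and -6.77 without shYAPTAZ replicate 2. Below shHIF2A the level in shJUNs gave a count ratio of 49.5 (95% interval 8.35 to 2008; adjusted p = 0.000935), and the fitted log2 difference of -5.07 became -4.44 without shHIF2A replicate 1 and -6.69 without shJUNs replicate 3. The shJUNs and shYAPTAZ libraries did not overlap, but with 1 against 6 counts the ratio was 8.04 (95% interval 0.976 to 370), and the difference was not called (adjusted p = 0.159). Depth therefore limits any ranking of these 2 lines for IGFL3.

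ACKR3 (ENSG00000144476, chr2:236567787-236582354, plus strand) encodes an atypical chemokine receptor that removes CXCL12 from the cell surface and signals through arrestin. It had 3.33, 2.67 and 0.223 CPM in shJUNs, 6.09, 10.9 and 13.3 CPM in shHIF2A, 13.2, 28.0 and 31.6 CPM in shYAPTAZ, and 118, 86.3 and 63.3 CPM in parental. Parental libraries were highest and shJUNs libraries lowest, while shHIF2A and shYAPTAZ overlapped at their edge. ACKR3 was 42.7-fold lower in shJUNs than in parental. It fell 8.86-fold in shHIF2A (adjusted p = 4.3e-05) and 3.61-fold in shYAPTAZ (adjusted p = 0.00167), both against parental. The further drop of shJUNs below shHIF2A was 4.82-fold (adjusted p = 0.0119). It missed the threshold in limma-voom (adjusted p = 0.0646), and when shHIF2A replicate 2 (adjusted p = 0.0502) or 3 (adjusted p = 0.0528) was left out. Below shYAPTAZ the drop was 11.8-fold (adjusted p = 5.83e-05).

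CHST9 (ENSG00000154080, chr18:26906481-27185308, minus strand) encodes a Golgi enzyme that adds sulfate to N-acetylgalactosamine on glycans. It had 0.222, 0.534 and 0 CPM in shJUNs, 27.8, 11.2 and 5.61 CPM in shHIF2A, 10.4, 5.09 and 0.482 CPM in shYAPTAZ, and 36.3, 15.5 and 28.3 CPM in parental. Its libraries spread more than those of LEF1: the highest shYAPTAZ library was 21.7 times the lowest, and that lowest one lay inside the shJUNs range. With 3 counts in shJUNs against 259 in parental, the ratio was 110 (95% interval 37.3 to 538). CHST9 fell 5.35-fold in shYAPTAZ against parental (adjusted p = 0.0178). This call was lost without parental replicate 1 (adjusted p = 0.0672) or shYAPTAZ replicate 2 (adjusted p = 0.0561), and in DESeq2 (adjusted p = 0.0566). Its log2 value of -2.42 became -3.33 without shYAPTAZ replicate 1 and -1.81 without replicate 3. In shHIF2A its log2 change was -0.83 ± 0.64 (SE; adjusted p = 0.402), which became -1.65 without shHIF2A replicate 1 (adjusted p = 0.124). Below shYAPTAZ the level in shJUNs gave a count ratio of 18.3 (95% interval 5.84 to 92.5, adjusted p = 0.0142). This call was lost without shJUNs replicate 1 (adjusted p = 0.0625), shJUNs replicate 3 (adjusted p = 0.0629) or shYAPTAZ replicate 1 (adjusted p = 0.0555), and in limma-voom (adjusted p = 0.268). Below shHIF2A the count ratio was 66.0 (95% interval 22.2 to 324, adjusted p = 0.0015, and 0.0562 in limma-voom). The fitted log2 difference of -5.78 became -4.96 without shHIF2A replicate 1 and -6.66 without shJUNs replicate 2. Without shJUNs replicate 2 or shYAPTAZ replicate 3 the log2 difference from shYAPTAZ, -4.19 with all libraries, became -5.07 and -4.79.

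CENPV (ENSG00000166582, chr17:16342534-16353656, minus strand) encodes a protein of mitotic centromeres that helps to place the chromosomal passenger complex. It had 28.2, 23.5 and 26.1 CPM in shJUNs, 0, 0.312 and 0 CPM in shHIF2A, 12.7, 17.8 and 14.5 CPM in shYAPTAZ, and 0.349, 0 and 0 CPM in parental. The gene was thus on in shJUNs and shYAPTAZ and rested on a single read in each of shHIF2A and parental, for which no fold is given. Its count ratio over parental was 260 in shJUNs (332 against 1 count, 95% interval 46.3 to 10293). In shYAPTAZ the ratio over parental was 151 (144 against 1 count, 95% interval 26.7 to 6008; adjusted p = 4.25e-07). Although shJUNs and shYAPTAZ libraries did not overlap, the 1.72-fold difference between them was not called (adjusted p = 0.195). PIGL, which lies on the opposite strand and shares 258 exon bases with CENPV, had 156 counts in shJUNs, 68 in shHIF2A, 75 in shYAPTAZ and 168 in parental, and was not called in shJUNs against parental (adjusted p = 0.482). CENPVL1, CENPVL2 and CENPVL3, copies of CENPV on the X chromosome, had no count in any library. Without parental replicate 1, which held its only parental read, the fitted log2 change of CENPV in shYAPTAZ was 8.74 in place of 6.78.

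PAPLN (ENSG00000100767, chr14:73237497-73274640, plus strand) encodes papilin, an extracellular matrix glycoprotein related to the ADAMTS proteases. It had 38.2, 19.0 and 19.9 CPM in shJUNs, 1.45, 0.312 and 0.701 CPM in shHIF2A, 49.9, 24.5 and 11.3 CPM in shYAPTAZ, and 0.349, 0 and 0.565 CPM in parental. The shJUNs and shYAPTAZ ranges overlapped, and both lay above every shHIF2A and parental library. The count ratio over parental was 86.6 in shJUNs (332 against 3 counts, 95% interval 29.4 to 422). In shYAPTAZ it was 81.8 (234 against 3 counts, 95% interval 27.7 to 400; adjusted p = 1.4e-06). Leaving out single libraries moved the fitted log2 change in shYAPTAZ, 6.38 with all libraries, to 5.73 without shYAPTAZ replicate 1 and to 7.19 without parental replicate 3. Between shJUNs and shYAPTAZ the log2 difference was -0.13 ± 0.45 (SE; adjusted p = 0.892). PAPLN lies on chromosome 14, whose 412 tested genes had a median log2 change over parental of 0.39 in shJUNs and 0.88 in shYAPTAZ, against -0.01 in shHIF2A. The part of this chromosome-wide shift in the PAPLN values was not tested. NUMB, the tested gene next to it at 467 bases, was at 35.3 CPM in shJUNs and 36.3 CPM in parental.

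ALDH2 (ENSG00000111275, chr12:111766887-111817532, plus strand) encodes the mitochondrial aldehyde dehydrogenase that clears acetaldehyde and lipid-derived aldehydes. It had 122, 107 and 123 CPM in shJUNs, 6.96, 0 and 0.701 CPM in shHIF2A, 15.9, 10.8 and 12.8 CPM in shYAPTAZ, and 4.19, 4.50 and 3.96 CPM in parental. The shJUNs libraries stood far above all others, and shYAPTAZ formed a smaller step above parental. ALDH2 was 27.5-fold higher in shJUNs than in parental, 43.1-fold higher than in shHIF2A (adjusted p = 9.06e-06) and 8.96-fold higher than in shYAPTAZ (adjusted p = 0.000145). The step in shYAPTAZ was 3.07-fold over parental (adjusted p = 0.0371). Its direction held in every setting, but the call was lost in DESeq2 (adjusted p = 0.132) and without any one of 9 libraries, all but the shHIF2A ones (adjusted p between 0.0502 and 0.102). In shHIF2A, replicate 1 supplied 24 of 26 counts; with it the log2 change was -0.65 (adjusted p = 0.543), and without it -3.53 (adjusted p = 0.00137). Its absence also raised the log2 difference of shJUNs over shHIF2A, to 8.32 in place of 5.43. Chromosome 12 had a median log2 change over parental of 0.29 in shJUNs, -0.01 in shHIF2A and -0.02 in shYAPTAZ, and its part in the ALDH2 values was not tested.

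**Figure D2:**
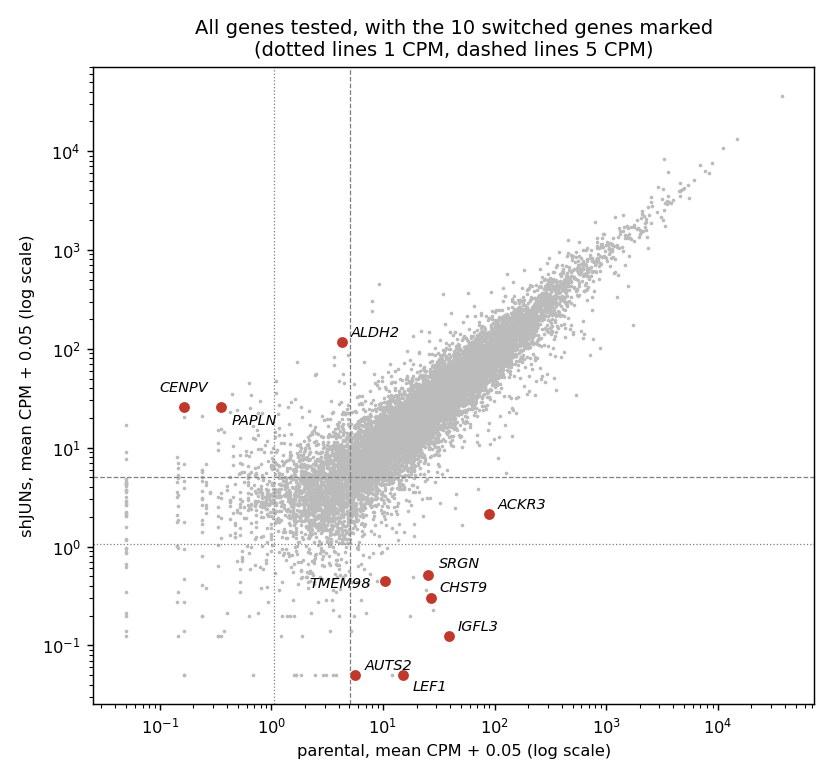
Mean CPM plus 0.05 in shJUNs (vertical, log scale) against parental (horizontal, log scale) for the genes tested that had a count in either group, with the 10 genes in red. Of the genes that fell, 6 lie under 1 CPM in shJUNs and ACKR3 at 2.07 CPM. CENPV and PAPLN start under 1 CPM in parental and ALDH2 at 4.21 CPM.

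Across the whole table, 38 genes were under 1 CPM in shJUNs and at least 5 CPM in parental, and 6 of the 7 fallen genes were among them (25 of the 38 met these limits in shJUNs and in no other knockdown); ACKR3 stayed at 2.07 CPM. In the other direction 78 genes were at least 5 CPM in shJUNs and under 1 CPM in parental, CENPV and PAPLN among them, while ALDH2 already had 4.21 CPM in parental. By the same limits 30 genes were near silent and 37 on in shHIF2A, none of them among the 10. In shYAPTAZ 75 were near silent, IGFL3 included, and 153 were on, CENPV and PAPLN included. Of the 12301 genes tested, 19.3% were called in shJUNs against parental in either direction. Nothing is read from the 10 genes there, since that contrast chose them.

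A gene was classed as switched in shJUNs alone where neither other knockdown differed from parental by a called change of at least 2-fold in the same direction, and where shJUNs differed from each of them by a called 4-fold. This held for LEF1, AUTS2, SRGN and TMEM98. Counts in shJUNs entered the choice of the genes, so the called 4-fold differences behind this class lean on it. Over all 12301 genes, 0.488% were called at least 4-fold lower and 1.00% at least 4-fold higher in shJUNs than in shHIF2A, and 1.67% lower and 1.73% higher in shJUNs than in shYAPTAZ. Called changes of at least 2-fold against parental were 5.15% lower and 4.68% higher in shHIF2A, and 6.94% lower and 7.98% higher in shYAPTAZ. LEF1 was the only one of the 4 not called against parental in either other line, whereas AUTS2, SRGN and TMEM98 all rose in shYAPTAZ. IGFL3 and ACKR3 also fell in both other knockdowns. CHST9 also fell, and CENPV, PAPLN and ALDH2 also rose, in shYAPTAZ. LEF1, TMEM98, IGFL3, ACKR3, CENPV and PAPLN kept their class in all 20 alternative settings. The class changed in 10 settings for ALDH2, 3 for CHST9, 3 for AUTS2 and 1 for SRGN. ALDH2 and CHST9 then joined the genes switched in shJUNs alone, whereas AUTS2 and SRGN left them. AUTS2 also fell in shHIF2A by this rule in DESeq2 and without shHIF2A replicate 3, and was unclassed in fits of 6 libraries. SRGN also fell in shHIF2A by this rule without parental replicate 1.

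Counted over the 10 genes, 10 were called in shJUNs against shHIF2A, where 7.53% of all tested genes were called, and 7 in shJUNs against shYAPTAZ, where 16.1% were called. The shJUNs libraries entered the choice of the genes, so these shares lean on it. Against parental, 3 of the 10 (IGFL3, SRGN and ACKR3, all lower) were called in shHIF2A, beside 18.6% of all genes in either direction and 8.80% lower. In shYAPTAZ 9 of the 10 were called against parental, 6 higher and 3 lower, beside 25.3% of all genes (13.0% higher, 12.3% lower), and the same 9 had libraries that did not overlap with parental, beside 36.2%. These comparisons share the parental libraries with the one that chose the genes.

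The comparison of shYAPTAZ with shHIF2A sets neither shJUNs nor parental libraries against each other, and 8 of the 10 were called in it, beside 18.4% of all tested genes. The genes had been chosen with earlier results of these data known, and the fit drew its spread from all 12 libraries. This share is therefore not independent of the choice. AUTS2 was 22.2-fold, SRGN 4.47-fold and TMEM98 2.90-fold higher in shYAPTAZ than in shHIF2A (adjusted p = 3.29e-07, 5.82e-06 and 0.00285). PAPLN was 32.3-fold and ALDH2 4.81-fold higher in shYAPTAZ (adjusted p = 7.85e-06 and 0.0116), and CENPV had 144 counts in shYAPTAZ against 1 in shHIF2A (adjusted p = 6.53e-07). ACKR3 was 2.46-fold higher and IGFL3 5.67-fold lower in shYAPTAZ than in shHIF2A (adjusted p = 0.0398 and 0.0153), with overlapping libraries in both. The ACKR3 call was lost without any one of 6 libraries (adjusted p up to 0.148, without shHIF2A replicate 1). The IGFL3 difference missed the threshold when shHIF2A replicate 1 (adjusted p = 0.11) or shYAPTAZ replicate 3 (adjusted p = 0.0698) was left out, and in limma-voom (adjusted p = 0.129). Leaving out shHIF2A replicate 1 changed the ALDH2 log2 difference to 5.15 in place of 2.27 and that of PAPLN to 5.72 in place of 5.01, and leaving out shYAPTAZ replicate 1 changed that of PAPLN to 4.35. Without shYAPTAZ replicate 2 the IGFL3 log2 difference was -3.43 in place of -2.50, and without shHIF2A replicate 2, the only shHIF2A library with a CENPV read, that of CENPV was 8.72 in place of 6.74. LEF1 (log2 0.38 ± 0.41 SE, adjusted p = 0.586) and CHST9 (log2 -1.59 ± 0.71 SE, adjusted p = 0.135) were not called, although CHST9 was called without shYAPTAZ replicate 1 (log2 -2.50, adjusted p = 0.0284). Its log2 difference shrank to -0.77 without shHIF2A replicate 1 (adjusted p = 0.538) and to -0.98 without shYAPTAZ replicate 3 (adjusted p = 0.267).

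**Figure D3:**
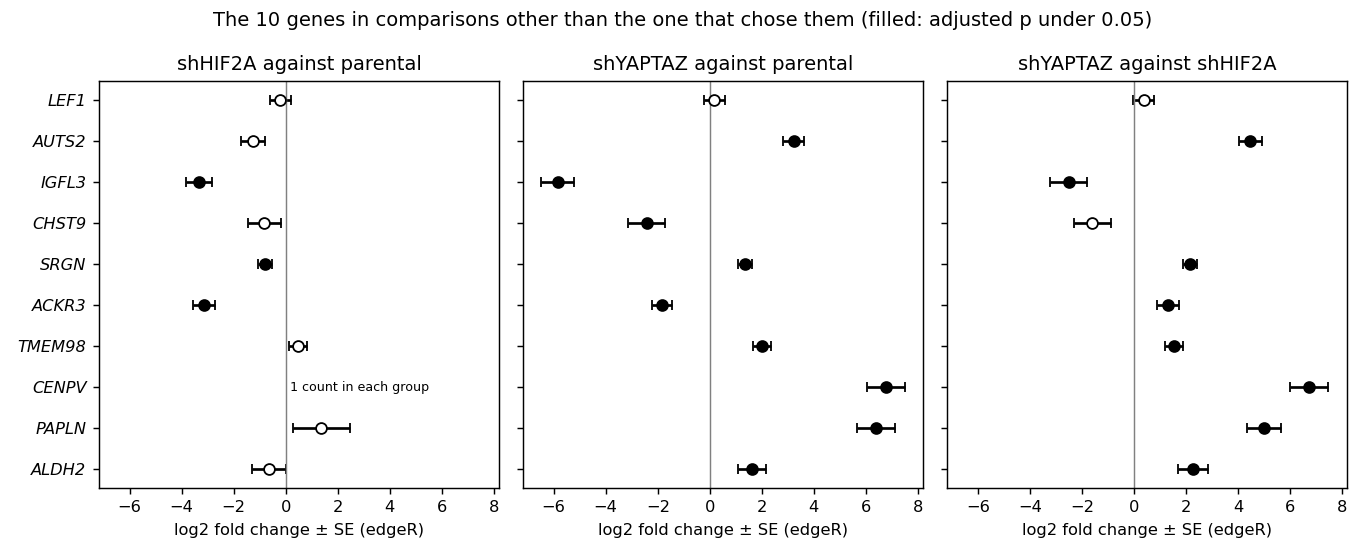
Log2 fold change ± SE (edgeR, 3 libraries a group) of the 10 genes in the 3 comparisons without shJUNs; filled points have an adjusted p under 0.05. Only IGFL3, SRGN and ACKR3 are filled in shHIF2A against parental, all to the left of 0, whereas 9 genes are filled in shYAPTAZ against parental, with AUTS2 at 3.22 and IGFL3 at -5.84.

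Neighbouring genes were examined next. Of the 20 tested genes that flank the 10 on either side, 4 were called in shJUNs against parental, all lower, a share of 20.0% beside 19.3% over the whole table. Within 1 Mb lay 126 tested genes, of which 7 were called higher and 13 lower, with a median log2 change of -0.03. No tested gene lay within 1 Mb of AUTS2. The sharpest drop among the flanking genes was that of IGFL2-AS1, an antisense RNA gene 64341 bases from IGFL3.

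IGFL2-AS1 had 0.444, 0 and 0 CPM in shJUNs, 4.35, 4.99 and 3.85 CPM in shHIF2A, 0.908, 1.59 and 1.93 CPM in shYAPTAZ, and 19.5, 15.7 and 17.2 CPM in parental. Like IGFL3 it was lower in all knockdown libraries than in any parental library, and no 2 groups overlapped. Its counts were 111-fold lower in shJUNs (2 against 173 in parental, 95% interval 30.1 to 920; adjusted p = 3.21e-06), and both shJUNs reads came from replicate 1; without it the fitted log2 change was -8.89 in place of -6.51. It fell 3.95-fold in shHIF2A (adjusted p = 0.014) and 11.2-fold in shYAPTAZ (adjusted p = 0.000207). MYO1D, a motor protein gene 50733 bases from TMEM98, was at 0.666, 7.48 and 0.447 CPM in shJUNs and at 25.8, 11.5 and 13.8 CPM in parental. Its 6.12-fold drop (adjusted p = 0.0162) was lost without shJUNs replicate 1 or 3 or parental replicate 1 (adjusted p between 0.0616 and 0.074), and its log2 value of -2.61 became -4.84 without shJUNs replicate 2. HADH beside LEF1 (1.96-fold lower, adjusted p = 0.00127) and VPS26A beside SRGN (1.39-fold lower, adjusted p = 0.0482) were the other flanking genes called.

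**Figure D4:**
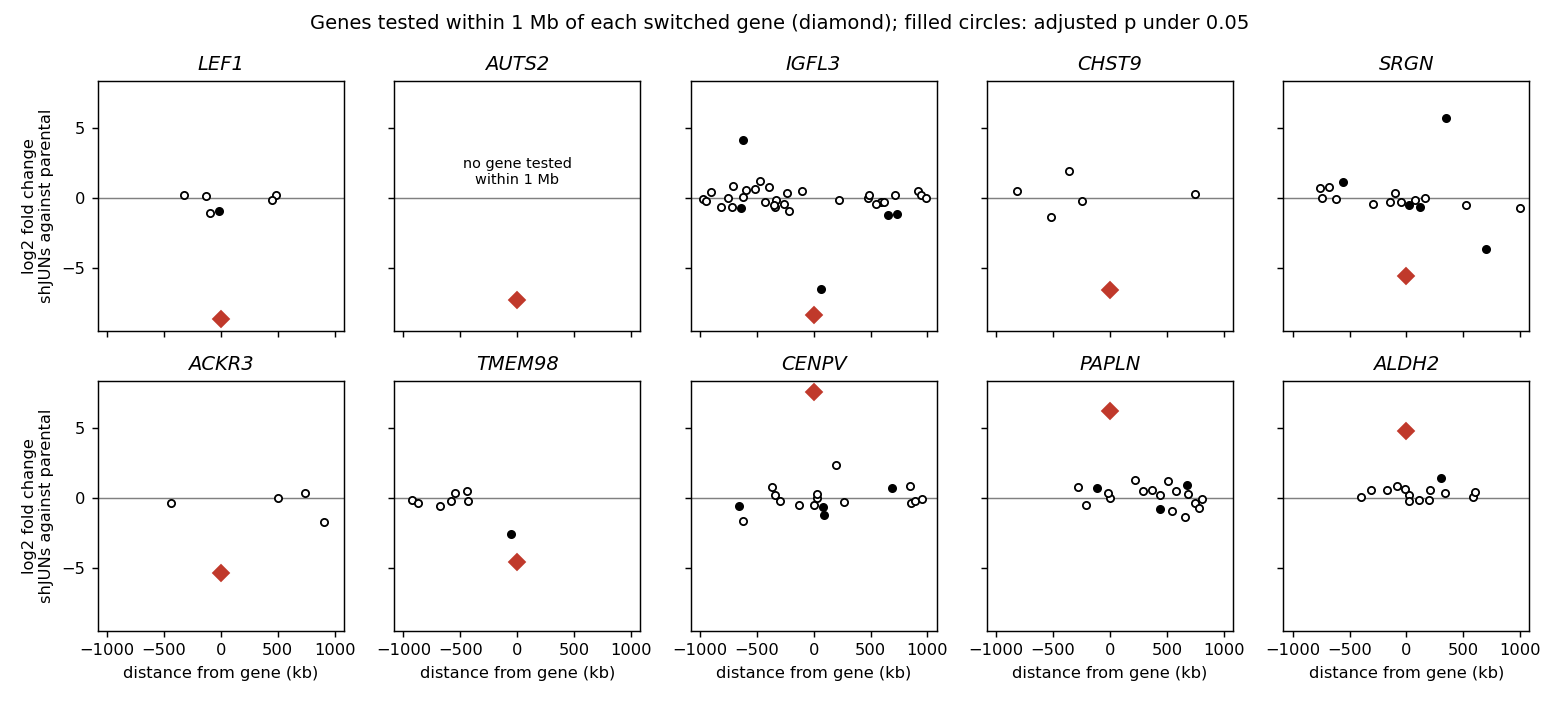
Log2 fold change in shJUNs against parental of tested genes within 1 Mb of each of the 10 genes (diamond), by distance in kb; filled circles have an adjusted p under 0.05. Most neighbours lie near 0, and IGFL2-AS1 is the deep point beside IGFL3 at 64.3 kb and log2 -6.51. Other called points far from 0 include TSPAN15 (5.70) and COL13A1 (-3.65) near SRGN and PPM1N (4.13) near IGFL3.

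Relatives and partners of the 10 genes came from 10 lists of pathway and family members, and 107 of them passed the filter. In shJUNs against parental 14 were called higher and 16 lower, which is 28.0% beside 19.3% over all genes. In shHIF2A 12 were higher and 18 lower (28.0% beside 18.6%), and in shYAPTAZ 24 were higher and 17 lower (38.3% beside 25.3%). In shJUNs the Wnt list around LEF1 had 1 gene higher and 3 lower of 17, with a median log2 change of -0.25 beside 0.00 for all genes. TCF7, a paralog of LEF1, was at 19.3, 25.6 and 17.2 CPM in shJUNs, 2.61, 2.18 and 0.701 CPM in shHIF2A, 15.0, 15.3 and 23.9 CPM in shYAPTAZ, and 1.40, 3.94 and 3.11 CPM in parental. It was thus high in the shJUNs and shYAPTAZ libraries and low in the other 6. TCF7 rose 7.15-fold in shJUNs (adjusted p = 0.000146) and 6.28-fold in shYAPTAZ (adjusted p = 0.000206). The Wnt target genes CCND1, a cyclin of the G1 phase, and MYC fell 8.26-fold and 3.31-fold in shJUNs (adjusted p = 1.18e-06 and 0.000593). Both also fell in shHIF2A, by 34.5-fold and 3.94-fold, and in shYAPTAZ, by 6.56-fold and 4.18-fold, with adjusted p-values of 0.000229 or less.

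The list of Polycomb complex members around AUTS2 had 4 of 16 genes lower and none higher in shJUNs. Over all tested genes 19.3% were called there in either direction. The same share stands beside the other shJUNs list counts below, and no list was tested against it. BMI1 and PCGF5, ring finger subunits of different Polycomb complexes, fell 1.78-fold and 1.77-fold (adjusted p = 0.00602 and 0.00863). Neither was called in shHIF2A or shYAPTAZ against parental (adjusted p between 0.0818 and 0.397). Both were nevertheless lower there, BMI1 by 1.40-fold and 1.19-fold and PCGF5 by 1.45-fold and 1.43-fold. For neither gene was shJUNs called against shHIF2A or shYAPTAZ (adjusted p between 0.057 and 0.481). CSNK2A1, a casein kinase subunit found in the AUTS2 complex, fell 1.62-fold (adjusted p = 0.0118), a call lost without parental replicate 1 (adjusted p = 0.071) or shJUNs replicate 3 (adjusted p = 0.0767). CSNK2A1 also fell 1.91-fold in shHIF2A (adjusted p = 0.00153) and 1.47-fold in shYAPTAZ (adjusted p = 0.0347), the second call being lost without parental replicate 1 (adjusted p = 0.163) or shYAPTAZ replicate 3 (adjusted p = 0.152). Of the sulfotransferase list around CHST9, 2 of 13 were lower and none higher. CHST3, which sulfates chondroitin, fell 2.29-fold (adjusted p = 0.00155), and B4GALNT4, which makes the LacdiNAc glycan that CHST9 can sulfate, fell 3.33-fold (adjusted p = 0.011). The B4GALNT4 call was lost without parental replicate 1 (adjusted p = 0.0939) or shJUNs replicate 3 (adjusted p = 0.0605). B4GALNT4 was not called in shHIF2A or shYAPTAZ against parental (adjusted p = 0.346 and 0.382). Nor was it called in shJUNs against either of these lines (adjusted p = 0.174 and 0.101). CHST3 also fell in shYAPTAZ, by 2.39-fold (adjusted p = 0.000779), and in shHIF2A, by 1.83-fold (adjusted p = 0.0165), where the call was lost without parental replicate 1 or 3 or shHIF2A replicate 1 (adjusted p between 0.0782 and 0.0835).

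Of 18 proteoglycan genes grouped with SRGN, 3 were higher and 1 lower in shJUNs. The cell-surface proteoglycan gene SDC2 fell 2.30-fold (adjusted p = 7.42e-06). B4GALT7, an enzyme of the sugar linker, rose 1.74-fold (adjusted p = 0.00541). SDC4 rose 1.47-fold (adjusted p = 0.012), a call lost without parental replicate 1 (adjusted p = 0.0533) or shJUNs replicate 2 (adjusted p = 0.0626). All 3 were also called in another knockdown against parental. B4GALT7 rose 1.96-fold in shHIF2A and 2.41-fold in shYAPTAZ (adjusted p = 0.00123 and 4.6e-05), and SDC2 fell 2.82-fold in shYAPTAZ (adjusted p = 3.1e-07). SDC4 rose 1.52-fold in shHIF2A (adjusted p = 0.00776; 0.0575 without shHIF2A replicate 1). Of 8 genes for ligands and partners of ACKR3, ADM, the adrenomedullin peptide that ACKR3 can scavenge, fell 4.98-fold (adjusted p = 0.000931). GRK5, a receptor kinase, rose 3.91-fold (adjusted p = 0.0192), a call lost without parental replicate 3 or shJUNs replicate 2 or 3 (adjusted p between 0.0529 and 0.0942). It also rose 3.82-fold in shYAPTAZ (adjusted p = 0.0174), a call lost without parental replicate 3 (adjusted p = 0.0694) or shYAPTAZ replicate 3 (adjusted p = 0.0556). ADM also fell 13.3-fold in shHIF2A and 3.51-fold in shYAPTAZ (adjusted p = 5.08e-05 and 0.00329).

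Of 6 tested genes of the chromosomal passenger complex and its partners, 2 were lower in shJUNs, 4 in shHIF2A and 1 in shYAPTAZ. Over all tested genes, 19.3%, 18.6% and 25.3% were called in these lines in either direction. In shJUNs AURKB, the kinase of the complex, fell 2.28-fold (adjusted p = 0.00802), and KIF20A, a mitotic kinesin, fell 1.58-fold (adjusted p = 0.0342). The KIF20A call was lost without parental replicate 2 or 3 or any shJUNs library (adjusted p between 0.058 and 0.146). In shHIF2A the falls of AURKB and KIF20A were 2.01-fold and 1.76-fold (adjusted p = 0.0246 and 0.0121). They were lost there too, AURKB without parental replicate 1 or 3 or shHIF2A replicate 1 or 2 (adjusted p between 0.0516 and 0.128) and KIF20A without parental replicate 2 or 3 or shHIF2A replicate 1 (adjusted p between 0.0548 and 0.0741). Neither was called in shYAPTAZ (adjusted p = 0.546 and 0.597). Among the 12 genes of the ADAMTS and ADAMTS-like list around PAPLN, 4 were higher and 3 lower. The aggrecan-cleaving protease gene ADAMTS5 fell 4.57-fold (adjusted p = 5.91e-05) and ADAMTS9 rose 2.40-fold (adjusted p = 0.00325). ADAMTS9 also rose 3.23-fold in shYAPTAZ (adjusted p = 0.000157). ADAMTS5, by contrast, was 2.01-fold higher in shHIF2A (adjusted p = 0.0195), a call lost without parental replicate 1 or 3 or shHIF2A replicate 1 (adjusted p between 0.0513 and 0.144). ADAMTS12 was at 6.21, 2.14 and 4.47 CPM in shJUNs, 0, 0 and 0.350 CPM in shHIF2A, 4.99, 4.78 and 10.4 CPM in shYAPTAZ, and 0 CPM in all parental libraries. Like PAPLN it was therefore counted in every shJUNs and shYAPTAZ library; it was at least 14.6-fold higher in shJUNs (adjusted p = 0.00157) and at least 24.1-fold higher in shYAPTAZ (adjusted p = 0.000386) than in parental.

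The list of aldehyde dehydrogenases, to which the aldehyde-handling enzymes ADH5 and AKR1B1 were added, had 5 of 15 genes higher and none lower in shJUNs, with a median log2 change of 0.25. ALDH1A3, which makes retinoic acid, rose 4.46-fold (adjusted p = 0.000552). The mitochondrial ALDH1B1 rose 2.87-fold (adjusted p = 0.00116), and AKR1B1, aldose reductase, rose 1.48-fold (adjusted p = 0.00533). Unlike ALDH2, ALDH1A3 and ALDH1B1 were also higher in shHIF2A than in parental, by 4.62-fold and 2.77-fold (adjusted p = 0.000495 and 0.00181). In shYAPTAZ they rose 2.38-fold and 3.26-fold (adjusted p = 0.0276 and 0.00027), the ALDH1A3 call being lost in limma-voom (adjusted p = 0.0923) and without parental replicate 1 or 2 or shYAPTAZ replicate 2 or 3 (adjusted p between 0.0509 and 0.0964). AKR1B1 fell 1.44-fold in shYAPTAZ (adjusted p = 0.00675) and rose 1.37-fold in shHIF2A (adjusted p = 0.0221), where the call was lost without parental replicate 1 (adjusted p = 0.133) or shHIF2A replicate 3 (adjusted p = 0.113). Of the IGF-like family, IGFL1 (3 counts in all), IGFL2 (7 counts) and IGFL4 (0 counts) did not pass the filter, and the receptor gene IGFLR1 was not called in any knockdown against parental.

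Genes with patterns most like each of the 10 were sought by the Pearson correlation of log2(CPM + 1) over the 12 libraries, among 10570 genes. The values below describe these 12 libraries, which share their group means, and only 5 of the 20 names recurred with Spearman's correlation. For TMEM98 the closest was CCDC152 (r = 0.98), with means of 0.0890 CPM in shJUNs, 11.3 in shHIF2A, 21.6 in shYAPTAZ and 5.16 in parental. TRO, a trophinin gene, was second for TMEM98 (r = 0.95) and closest to SRGN (r = 0.96), with 0.237 CPM in shJUNs, 8.22 in shHIF2A, 15.2 in shYAPTAZ and 6.25 in parental. These 2 genes were thus near silent in shJUNs and highest in shYAPTAZ. The gene closest to LEF1, and second for SRGN, was TMEM184C (r = 0.97 and 0.95), with a narrower range of 6.74 CPM in shJUNs, 12.2 in shHIF2A, 14.5 in shYAPTAZ and 12.6 in parental. PTPRS, a receptor phosphatase, was second for LEF1 (r = 0.96), with 0.444 CPM in shJUNs, 15.3 in shHIF2A, 20.0 in shYAPTAZ and 18.4 in parental.

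The closest matches of the other genes that fell were also expressed in shJUNs. MPC1, which carries pyruvate into mitochondria, was closest to AUTS2 (r = 0.98), with 14.4 CPM in shJUNs, 20.0 in shHIF2A, 40.0 in shYAPTAZ and 23.5 in parental, and RPS6, a ribosomal protein gene, was second (r = 0.96), with 3010 CPM in shJUNs, 3396 in shHIF2A, 4680 in shYAPTAZ and 3817 in parental. The factor gene IRF2 was closest to CHST9 (r = 0.96), with 5.70 CPM in shJUNs, 15.3 in shHIF2A, 11.0 in shYAPTAZ and 16.7 in parental. ACKR3 was closest to AKR1A1, an aldehyde reductase gene (r = 0.95), with 87.8 CPM in shJUNs, 105 in shHIF2A, 121 in shYAPTAZ and 157 in parental, and then to SEMA4C (r = 0.94), with 11.0 CPM in shJUNs, 14.5 in shHIF2A, 16.0 in shYAPTAZ and 21.3 in parental. The means of these 5 genes spanned a smaller fold range than the genes they resembled.

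Among the genes that were on, CENPV was closest to LCIIAR (r = 0.98), which had 22.5 CPM in shJUNs, 0.490 in shHIF2A, 12.5 in shYAPTAZ and 0.769 in parental, and then to SPINT2, a protease inhibitor gene (r = 0.98), with 136 CPM in shJUNs, 38.4 in shHIF2A, 109 in shYAPTAZ and 42.1 in parental. PAPLN was closest to VAMP5, a vesicle fusion protein gene (r = 0.98), with 29.0 CPM in shJUNs, 2.09 in shHIF2A, 45.0 in shYAPTAZ and 1.45 in parental. HNMT, which inactivates histamine, came next for PAPLN (r = 0.98), with 20.4 CPM in shJUNs, 0.447 in shHIF2A, 17.3 in shYAPTAZ and 0.116 in parental. Like CENPV and PAPLN, LCIIAR, VAMP5 and HNMT were high in shJUNs and shYAPTAZ and low in shHIF2A and parental. IPO13, a nuclear import receptor gene, was closest to IGFL3 (r = 0.97), with 20.6 CPM in shJUNs, 28.3 in shHIF2A, 25.3 in shYAPTAZ and 113 in parental, and MGAT4B was second (r = 0.95), with 165 CPM in shJUNs, 204 in shHIF2A, 162 in shYAPTAZ and 318 in parental. For ALDH2 the closest, EIF4ENIF1 (r = 0.95), spanned a smaller range, with 38.8 CPM in shJUNs, 20.1 in shHIF2A, 28.5 in shYAPTAZ and 24.3 in parental, and SPTLC2 was second (r = 0.94), with 78.0 CPM in shJUNs, 30.2 in shHIF2A, 47.2 in shYAPTAZ and 31.6 in parental.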

How the data were processed

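BRB-seq, which barcodes and sequences the 3′ ends of polyadenylated RNA, was run on 12 libraries (3 each of shJUNs, shHIF2A, shYAPTAZ and parental 786-O cells). Per the submitters' processing notes, reads were handled with Trim Galore and STAR on hg38; tool versions, the counter, its strand setting and any collapsing of molecular identifiers are not given in the sources. The deposited table holds raw counts per gene, not normalized, per the file headers in the layout of featureCounts. Of 62705 lines, 1 gene was broken over 3 lines and left out, giving 62702 genes; symbols were found for 62624.

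Counts were tested with edgeR 4.0.16 (R 4.3.3): filterByExpr by group, TMM scaling, and a single robust quasi-likelihood model of the 4 group means over all 12 libraries (12301 genes, coefficient of variation 25.1%). Replicate pairs differed beyond counting error, with chi-squared per degree of freedom of 4.91 to 20.2. Adjusted p-values are Benjamini-Hochberg values over all genes tested. Where a group had 0 counts, the fold is a lower bound against 3 counts over the group; with 1 to 3 counts it is the ratio of counts with a 95% Clopper-Pearson interval. Intervals and floors cover counting error only. Overlapping genes and near-identical copies are uncertain, since how shared reads were counted is not known here. Alternatives were DESeq2 1.42.0 (its size factors, and its Wald test), limma-voom (limma 3.58.1), other filters, the replicate number as a block, fits of 6 libraries, and leaving out each library.

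The genes and the lists were chosen with earlier results of these data known. Named besides the 10 genes were the shRNA targets, overlapping genes with at least 10 counts, flanking genes called at 2-fold, up to 3 called genes per list, and the 2 genes most alike each of the 10, of which 1 is not reported here. HADH, VPS26A, NUMB, TSPAN15, COL13A1, PPM1N and the paralogous copies of CENPV and IGFL3 were named after their values were seen.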

Additional observations from a re-analysis of the deposited data

How the results depend on the processing

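Of the counts of genes called, the one in shJUNs against shHIF2A moved most: 926 in the fit of all libraries, 1621 in a fit of these 6 libraries alone, and 471 to 1199 when single libraries were left out. Leaving out single libraries gave 1518 to 2701 in shJUNs against parental (2370 with all) and 1299 to 2199 in shJUNs against shYAPTAZ (1985 with all); fewer libraries per fit is how these alternatives are built. With limits of 10 and 1 CPM, 11 genes were near silent and 27 on in shJUNs, 8 and 7 in shHIF2A, and 24 and 67 in shYAPTAZ. With limits of 5 and 0.5 CPM, 24 were near silent and 36 on in shJUNs, 7 and 13 in shHIF2A, and 44 near silent in shYAPTAZ. Uncalled differences that changed sign were those of PAPLN in shJUNs against shYAPTAZ (log2 0.22 in limma-voom, -0.53 to 0.53 without single libraries), and of CENPV (-1.94 to 1.98) and LEF1 (-0.74 to 0.031) in shHIF2A against parental without single libraries; the cause was not tested. The number of genes switched in shJUNs alone lay between 3 and 6. AUTS2 missed the class in a fit of 6 libraries at a time. Replicate numbers were not taken to pair the samples in the main fit. However, 9 of 18 same-numbered pairs had a correlation of deviations over 0.1 (range -0.01 to 0.37). In 28 of 36 cases a library correlated best with its own number. This hint of a structure shared by replicate number came from the data and not the design, and the main fit leaves it out. With a replicate block, the CHST9 difference between shYAPTAZ and shHIF2A was called (adjusted p = 0.0324), as it was with no filter on low counts (0.0108); the block changed no other call among the 10 genes. ALDH2 in shYAPTAZ against shHIF2A missed the threshold in a fit of 6 libraries (adjusted p = 0.0886). Depth limits genes under about 1 CPM.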
